A study of Arabidopsis thaliana with 48 samples.

Results

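The genes described here encode the nuclear subunits of the photosynthetic antenna, photosystem II and photosystem I of Arabidopsis thaliana. They were taken by name: the LHCB, LHCA, PSB and PSA subunit genes in a fixed list of 41 loci, out of 32833 genes in the table of normalised counts. The list holds 20 antenna genes, 9 photosystem II genes and 12 photosystem I genes. Of the 41 genes, 40 passed the filter on low values, which asked for a mean normalised count of 10 or more, as did 21536 genes in all. LHCB1.5 (AT2G34420), the other member, was listed at 0 in every library.

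Light-harvesting chlorophyll a/b-binding proteins sit in the thylakoid membrane of the chloroplast and pass the energy of absorbed light to the reaction centres. LHCB proteins mainly serve photosystem II, which takes electrons from water, and LHCA proteins serve photosystem I, which hands electrons to ferredoxin. The reaction-centre cores are encoded in the chloroplast genome, whereas the antenna and many of the peripheral subunits are nuclear genes whose transcripts are among the most abundant in green tissue and respond to light, the circadian clock and signals from the chloroplast.

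RNA was sequenced from wild-type Col-0 seedlings about 10 d old that had grown on plates, at least 100 seedlings a sample, in 16 groups of 3 biological replicates. Salt plates held 50 mM NaCl and PQ plates held 0.05 µM paraquat, a herbicide that diverts electrons from photosystem I to oxygen. HL was 700 µmol m-2 s-1 of light in place of 50 µmol m-2 s-1, and HS was 33°C in place of 21°C, both for 1.5 h. The 4 single stresses (Salt, PQ, HL and HS), all their combinations up to Salt + PQ + HL + HS, and the unstressed Control make up the 16 groups. Each sample was whole seedlings, so fewer green cells and less of a transcript per cell cannot be told apart.

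Because the values of near-identical copies depend on where their reads were placed, the LHCB1 copies are shown first. LHCB1.1, LHCB1.2 and LHCB1.3 lie side by side on chromosome 1 of TAIR10.1 (the RefSeq genome, in which members were located by locus ID; the deposited table holds no coordinates), LHCB1.3 at chr1:10477885-10479114, plus strand. Their coding sequences of 804 bases are 95.6 to 96.4% identical and differ at 47 positions, 8 of them in the stretch from base 25 to 84, printed here 5′ to 3′ with the positions that differ among the 3 copies in capitals.
LHCB1.1: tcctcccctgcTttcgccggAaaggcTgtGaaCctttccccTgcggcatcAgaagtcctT
LHCB1.2: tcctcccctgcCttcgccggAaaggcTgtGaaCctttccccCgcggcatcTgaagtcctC
LHCB1.3: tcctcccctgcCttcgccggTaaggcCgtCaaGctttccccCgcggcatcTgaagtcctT

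The longest stretch that all 3 copies share is 62 bases. Of the 50-base words in the exons, 79.5% of LHCB1.1, 89.4% of LHCB1.2, 83.0% of LHCB1.3 and 86.3% of LHCB1.4 occur once in the genome, as do 76.5% of LHCB2.1, 70.5% of LHCB2.2 and 88.6% of LHCA2. In 33 of the 41 members every word is unique. The split of reads among the LHCB1 copies, and between LHCB2.1 and LHCB2.2, is therefore uncertain, and whether counting used the strand is not given in the sources used here.

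Annotated neighbours overlap the exons of 17 members, and cover 20% or more of the exon bases of 7 (LHCB1.5, LHCB2.3, LHCB6, PSAE1, PSAG, PSAH1 and PSAH2). LHCB1.5 lies at chr2:14522524-14523568, minus strand, and AT2G08665, a non-coding RNA annotated on the opposite strand, covers all of its exon bases. LHCB1.5 and AT2G08665 were both at 0 in all 48 libraries, so no value of LHCB1.5 is reported. PSAG, of which 61.4% is covered by AT1G55673, also has a partner at 0 throughout. Ratios between 2 members below are compared between groups, not read as relative abundance of the members. The reads that could have been lost or shared in these overlaps were not counted separately.

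Some marker genes did not follow the labels, and this bears on every comparison by label. HSP101, a disaggregase of the heat response, had 17625, 17907 and 18178 normalised counts in the libraries labelled HS, against 1055, 1133 and 1106 in those labelled Control. It had 59796, 58656 and 63376 in the libraries labelled Salt, 156407, 159545 and 151242 in PQ and 73496, 75515 and 67816 in HL, which received no heat by their labels. In contrast, the libraries labelled PQ + HL + HS had 1091, 1172 and 1126 and those labelled Salt + PQ + HL + HS had 1141, 1046 and 1227. The 4 heat markers checked (HSP101, HSFA2, HSP70-4 and HSP17.6A) were all called higher in 12 treatments, and their median log2 fold change was -0.13 for PQ + HL + HS libraries, -0.40 for those labelled Salt + PQ + HL + HS and 0.09 for Salt + PQ + HL libraries. ELIP1, which is induced by strong light, rose by 5.79 on the log2 scale in HL but also by 4.00 in Salt and 5.61 in PQ, and its log2 fold change was 0.53 in Salt + HL and 0.80 in PQ + HL. Groups were kept as labelled. A group name below means the libraries labelled so, and what those seedlings received cannot be told apart from an exchange of labels.

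The 48 libraries held 67888254 to 87569857 reads on genes. The deposited values had been divided by size factors of 0.594 to 1.34, and their totals were 114373858 to 116426507 in HL + HS, against 62832066 to 64244050 in Control. Values on this scale and shares of a library's reads can thus move in opposite directions, so both are given. With 3 libraries a group, an exact permutation test cannot go below 0.10, so tests come from limma fitted across all 21536 genes, with Benjamini-Hochberg adjusted p below 0.05 as the call. Log2 fold changes are on the log2(normalised count + 1) scale.

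As a share of all reads, the 41 genes took less of the library than in Control in most treatments. They held 5.07 to 5.45% of reads in Salt, 4.82 to 5.28% in PQ and 5.10 to 5.29% in HL, against 7.87 to 8.27% in Control. Similarly low shares were those of Salt + HL + HS (4.81 to 5.11%), Salt + PQ + HS (5.03 to 5.16%) and PQ + HS (5.13 to 5.16%). HL + HS, the group with the highest deposited totals, held 6.96 to 7.25%, also below Control. HS (8.39 to 8.59%) and Salt + PQ + HL + HS (9.75 to 9.89%) lay above the Control range, and PQ + HL + HS overlapped it (7.61 to 7.94%). These shares do not depend on how libraries are scaled to each other. The root markers checked (8 genes) summed to 8217 to 8474 normalised counts in Salt and 7388 to 8195 in PQ, above the 6097 to 6839 of Control, with 3 and 2 of the 8 called higher and 1 lower in each. The sum overlapped Control in HL (6358 to 7298), was also above it in Salt + PQ + HL (7609 to 8052) and PQ + HL + HS (7242 to 7802), and was below it in Salt + PQ + HS (4842 to 5243), HL + HS (3777 to 3936) and Salt + HL + HS (3602 to 4495). Unlike the shares, these sums are on the deposited scale. Library totals on that scale were 75960821.3 to 78459558.6 in PQ, against 62832066.2 to 64244050.4 in Control, and those of Salt and HL also lay above Control. A higher sum in such a group can come in part from the scaling, and root sums as shares of reads were not computed. The part of root tissue in the members' shares was not tested.

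The make-up of the photosynthetic transcript pool also differed. LHCB1 copies, which encode the most abundant protein of the trimeric antenna of photosystem II, made up 19.9 to 20.3% of the 41 genes' reads in HL, 20.9 to 21.7% in Salt and 21.7 to 22.7% in PQ, against 31.6 to 33.0% in Control. Their share lay below the Control range in 10 of 15 treatments, above it in HL + HS (33.7% in each library) and Salt + PQ + HL + HS (35.3 to 35.6%), and overlapped it in 3. LHCA1 to LHCA4, the 4 main antenna proteins of photosystem I, took more of the pool than in Control in 14 of 15 treatments. Their share was 18.8 to 19.1% in Salt + PQ and 18.3 to 18.6% in HL + HS, and 12.2% in each Control library. The exception was PQ + HL + HS (11.8 to 12.0%), below the Control range. Photosystem II subunits took a larger share than in Control in 11 treatments (28.8 to 29.2% in HL, 23.2 to 23.7% in Control), and photosystem I subunits overlapped the Control range in 9. Shares of the pool add up to the whole, so a lower LHCB1 share by itself raises the others. As a share of all reads, photosystem II subunits held less in HL (1.48 to 1.54%) than in Control (1.83 to 1.92%). On that measure they lay above the Control range in Salt + PQ + HL + HS (2.01 to 2.05%).

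**Figure D1:**
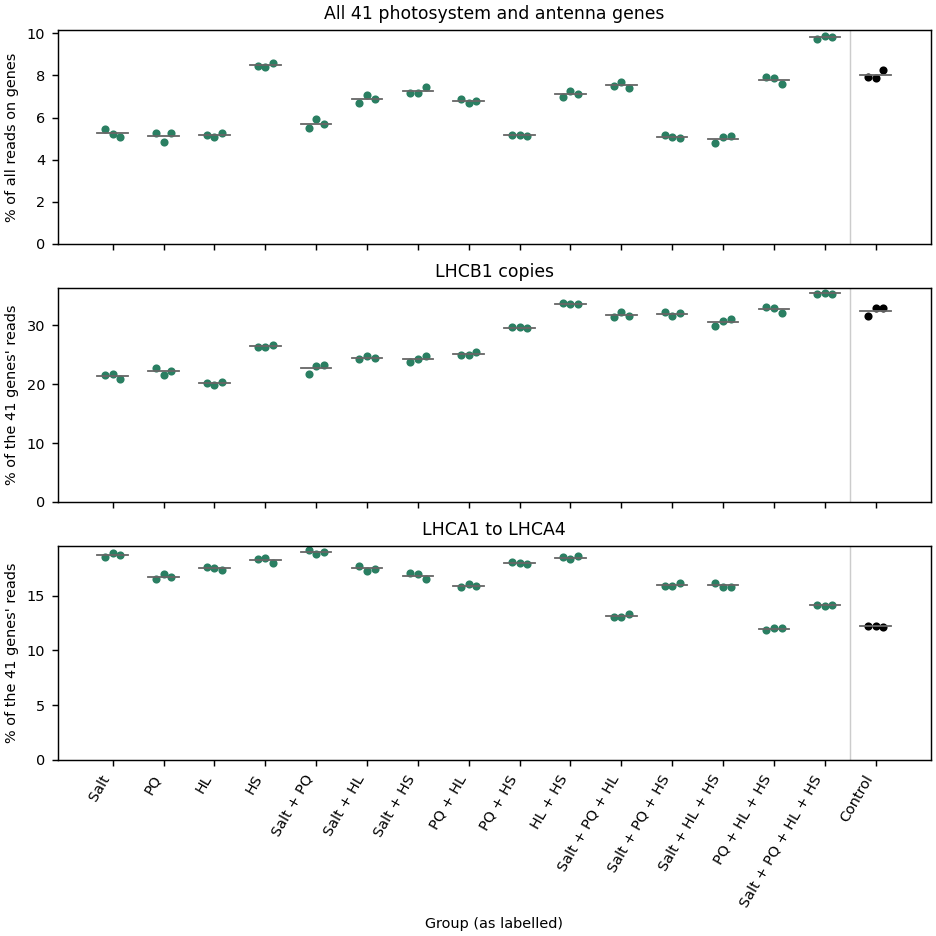
Each point is 1 library and each short line the mean of 3, by labelled group. The top panel is the 41 genes' percent of all reads on genes, the middle panel the LHCB1 copies' percent of the 41 genes' reads, and the bottom panel that of LHCA1 to LHCA4. LHCB1 held 19.9 to 20.3% of the pool in HL, against 31.6 to 33.0% in Control, while LHCA1 to LHCA4 lay above Control in 14 of 15 treatments.

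Counting genes called against Control gave a second view, on the deposited scale. In Salt, 31 of the 40 tested members were called lower and 5 higher, against 39.1% and 40.5% of all tested genes. PQ had 31 lower and 6 higher, against 39% and 40.2% of all tested genes. HL had 29 lower and 6 higher, against 37.5% and 38.5% of all tested genes, and Salt + PQ had 29 lower and 6 higher, against 38.5% and 40.2% of all tested genes. In these 4 treatments all lower calls were also made, for the same genes, when each library was scaled to the same total and after quantile normalisation. The 15 comparisons share the 3 Control libraries. In PQ, the same total gave 35 lower and 1 higher, against 57.3% and 25.2% of all genes at that scaling. The median log2 fold changes over the 40 genes were -0.33 in Salt, -0.24 in PQ, -0.26 in HL and -0.25 in Salt + PQ, beside medians of 0.00 to 0.01 for all tested genes.

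Salt + HL had 21 lower and 8 higher, against 33.5% and 35.8% of all tested genes, and PQ + HL had 17 lower and 11 higher, against 34.4% and 35.9% of all tested genes. With each library at the same total, PQ + HL had 27 lower and 7 higher, against 45.3% and 27.4% of all genes. Salt + PQ + HL, for which fewer genes were called over the whole table, had 19 lower and 7 higher, against 20.9% and 19.6% of all tested genes. In PQ + HL + HS 8 members were called lower and 3 higher, against 10.1% and 9.65% of all tested genes. The lower calls numbered 5 without Control replicate 1, 4 without Control replicate 3, 4 without replicate 2 of every treatment and 3 without replicate 3 of every treatment.

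Treatments with HS in their label differed among themselves. HS had 4 lower and 21 higher, against 34.2% and 37.2% of all tested genes, and 17 of the 21 higher calls were made under all 3 scalings, while 13 members were lower and 19 higher with each library at the same total, against 41.7% and 30.2% of all genes. Salt + HS had 12 lower and 14 higher, against 33.9% and 35.6% of all tested genes, and 19 lower and 11 higher at the same total, against 44.6% and 27.6%. Salt + PQ + HL + HS had 2 lower and 28 higher, against 23.6% and 23.3% of all tested genes, and 23 of its 28 higher calls were made under all 3 scalings. Without Control replicate 3, 1 gene was lower. PQ + HS had 20 lower and 11 higher, against 42.1% and 42.1% of all tested genes, Salt + PQ + HS had 19 lower and 14 higher, against 42.4% and 42.2% of all tested genes, and Salt + HL + HS had 13 lower and 17 higher, against 43% and 42.9% of all tested genes. HL + HS had 1 lower and 34 higher, against 43.2% and 42.7% of all tested genes, but with each library at the same total 31 members were lower and 7 higher, against 78.8% and 14.3% of all genes, so that the members' lower calls were then close to the share of the whole table. After quantile normalisation 35 were lower and 2 higher, against 48.3% and 36.2% of all genes. None of the higher calls in PQ + HS, Salt + PQ + HS or Salt + HL + HS, and 1 of those in HL + HS (LHCA1), was made under all 3 scalings. With each library at the same total, 38 members were lower and 2 higher in PQ + HS, against 71.9% and 18.6% of all genes. At that scaling 39 were lower and 0 higher in Salt + PQ + HS, against 76.3% and 15.5%, and 40 and 0 in Salt + HL + HS, against 78.1% and 14.6%.

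**Figure D2:**
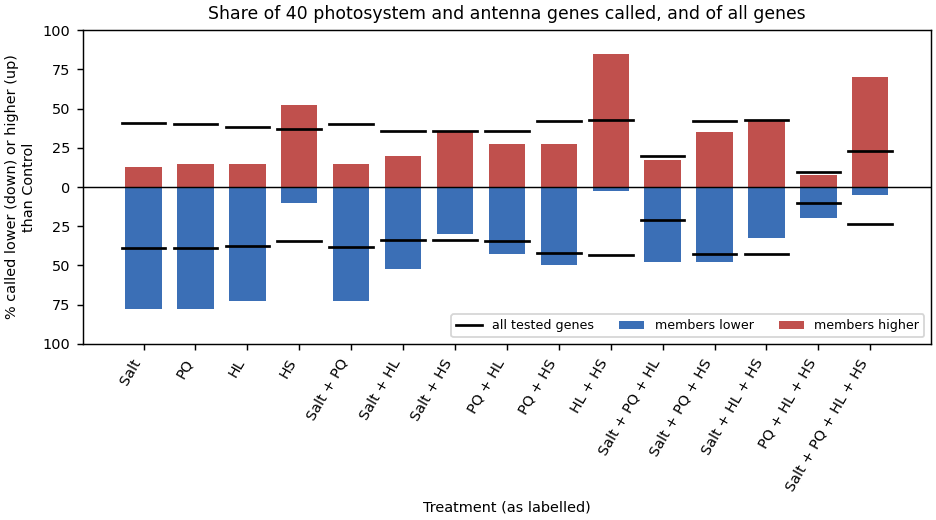
Percent of the 40 tested members called lower (bars downwards) or higher (bars upwards) than Control in each labelled treatment, with black lines for the percent of all 21536 tested genes. On the deposited scale, higher calls outnumber lower ones in HS, Salt + HS, HL + HS, Salt + HL + HS and Salt + PQ + HL + HS. Lower calls outnumber higher ones in the other treatments, most of all in Salt, PQ, HL and Salt + PQ. The direction in Salt + HS, HL + HS and Salt + HL + HS turned under both other scalings.

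**Figure D3:**
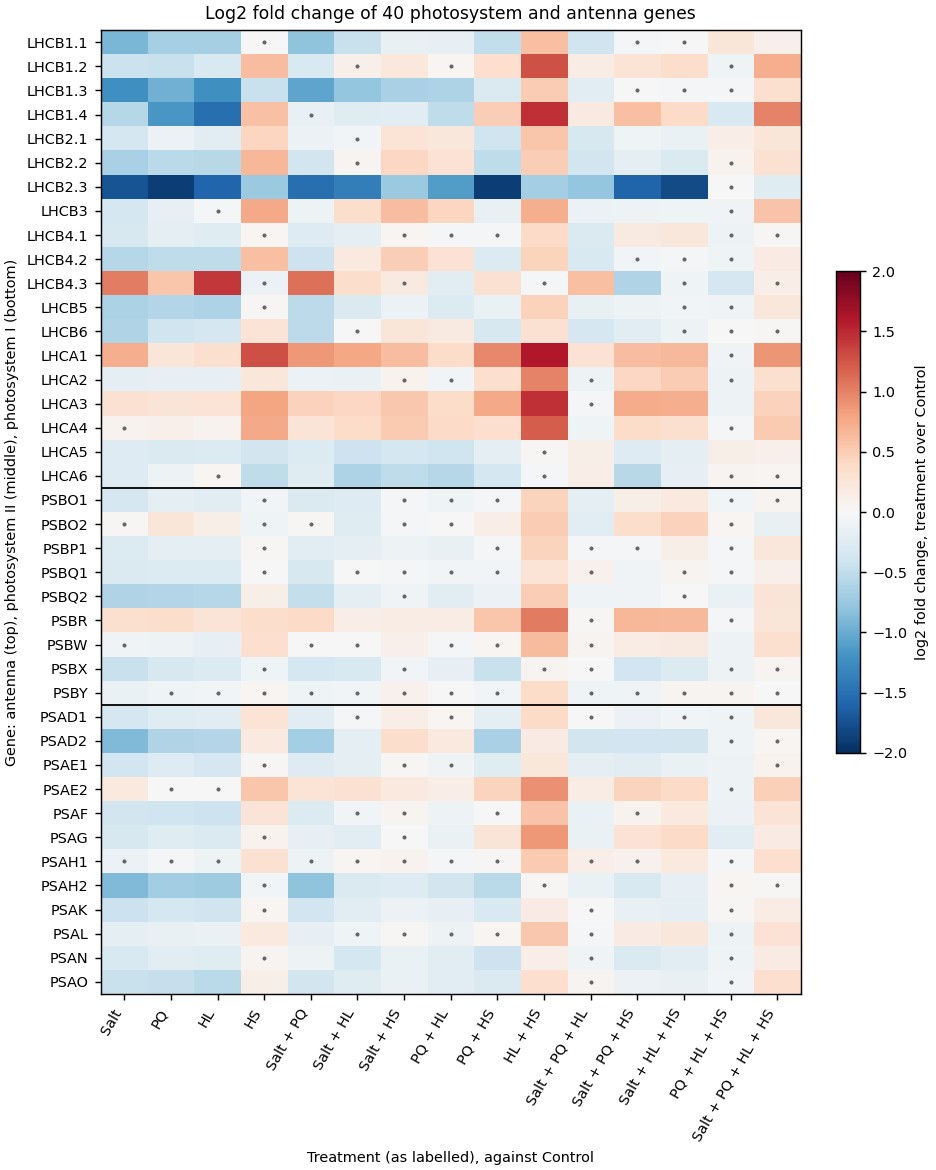
Log2 fold change of each tested member (rows) in each labelled treatment over Control (columns), antenna genes above, photosystem II in the middle and photosystem I below. Grey dots mark comparisons that did not pass adjusted p below 0.05. LHCB2.3 is blue in 14 columns, LHCA1 is red in 14, and LHCB4.3 is red in Salt, PQ, HL and Salt + PQ.

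Among the antenna genes of photosystem II, LHCB1.3 was the most abundant per length in Control, at 941832 ± 50757 normalised counts per kb of exon (SD, n = 3), and LHCB4.3 (AT2G40100) the least abundant, at 411 ± 39.5 (SD, n = 3). LHCB1.3 (AT1G29930) had 489583, 483753 and 510207 normalised counts in HL and 531149, 503074 and 458070 in Salt, against 1098838, 1153161 and 1223363 in Control. The groups did not overlap, and the log2 fold changes were -1.23 (SE 0.059, adjusted p = 1.3e-22) and -1.22 (SE 0.059, adjusted p = 1.4e-22). It fell in 10 of 15 treatments, 5 of them under all 3 scalings, and rose in 2, neither under all 3. In HL + HS it had 1596917, 1688884 and 1633522, a log2 fold change of 0.50 that was -0.36 with each library at the same total and -0.94 after quantile normalisation.

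LHCB1.4 was called in both directions, lower in 7 treatments and higher in 7. It had 79068, 72735 and 77018 normalised counts in HL and 101936, 84524 and 106811 in PQ, against 203153, 216099 and 233201 in Control, with log2 fold changes of -1.51 (SE 0.068, adjusted p = 1.3e-23) and -1.16 (SE 0.068, adjusted p = 1.5e-19). In Salt + PQ + HL + HS its counts of 426303, 441085 and 434263 lay above every Control library (log2 fold change ± SE 1.00 ± 0.068), and in HL + HS they were 570556, 610698 and 613403. The HL + HS value of 1.46 was 0.60 with each library at the same total and -0.92 after quantile normalisation. LHCB1.1 (AT1G29920) was called lower in 9 treatments and higher in 3, and LHCB1.2 (AT1G29910) lower in 4 and higher in 8. All lower calls of LHCB1.1, LHCB1.2 and LHCB1.4 were made under all 3 scalings, but only 1, 3 and 2 of their higher calls. LHCB1.1 ran from -0.91 in Salt to 0.60 in HL + HS on the log2 scale, and LHCB1.2 from -0.44 in PQ to 1.27 in HL + HS. Neither of these HL + HS rises was called under all 3 scalings. Summing the LHCB1 copies, which removes any misplacing of reads among them, gave a log2 fold change of -1.11 in HL, -1.02 in Salt and -0.13 in HS.

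LHCB2 proteins join LHCB1 in the mobile trimers that are phosphorylated when the antenna is shared out between the photosystems. LHCB2.3 stood apart from its copies: it was called lower in 14 of 15 treatments, each under all 3 scalings, whereas LHCB2.1 was called lower in 8 and higher in 6, and LHCB2.2 lower in 8 and higher in 5. The coding sequence of LHCB2.3 is 84.6% identical to that of LHCB2.1 and 84.8% to that of LHCB2.2 (AT2G05070), which are 93.0% identical to each other. The 200 bases before the annotated start of each copy are printed because the 3 genes encode like proteins but differed in level. They are RefSeq TAIR10.1 sequence on the gene's strand, from chr2:1824481-1824680, chr2:1800473-1800672 and chr3:10255706-10255905, with motif matches in capitals.
LHCB2.1: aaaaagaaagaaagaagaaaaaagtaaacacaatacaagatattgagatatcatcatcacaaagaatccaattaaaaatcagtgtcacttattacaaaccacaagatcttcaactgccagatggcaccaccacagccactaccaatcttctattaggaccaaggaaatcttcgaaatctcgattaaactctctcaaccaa
LHCB2.2: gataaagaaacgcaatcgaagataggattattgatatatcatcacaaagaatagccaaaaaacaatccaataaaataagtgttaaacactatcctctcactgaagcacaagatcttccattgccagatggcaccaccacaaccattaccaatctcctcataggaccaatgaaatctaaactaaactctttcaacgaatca
LHCB2.3: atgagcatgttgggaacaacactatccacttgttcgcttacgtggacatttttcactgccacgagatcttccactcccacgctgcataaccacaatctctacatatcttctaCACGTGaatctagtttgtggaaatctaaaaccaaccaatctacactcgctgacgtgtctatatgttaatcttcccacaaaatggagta

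The motifs searched, on both strands, were the G-box CACGTG (its own reverse complement), the I-box GATAAG, the evening element AAAATATCT and the CCA1 binding site AAAAATCT. The window of LHCB2.3 holds 1 G-box, at -88 from the start, and those of LHCB2.1 and LHCB2.2 hold none of the 4 motifs. A G-box stood in the windows of 8 of the 41 members (19.5%), among them LHCB4.1, PSBQ1, PSBQ2, PSAE2 and PSAH2, against 5.64% of 27443 protein-coding genes, and an I-box in those of 8 (19.5%) against 9.97%. CCA1 sites were in 5 members' windows (12.2%) against 5.22%, and the evening element in none against 1.92%. Members with a G-box include genes that fell (LHCB2.3, PSAH2) and genes called higher in 12 treatments (PSAE2, LHCA4). The match is therefore given as a description of the sequence.

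LHCB2.3 (AT3G27690) had 8684, 7563 and 8562 normalised counts in PQ and 8098, 8200 and 8392 in PQ + HS, against 30070, 29629 and 31199 in Control. Its log2 fold changes were -1.88 (SE 0.046, adjusted p = 6.6e-34) and -1.88 (SE 0.046, adjusted p = 3.6e-34). Salt (9645, 9251 and 8512) and HL (10380, 9674 and 10252) were nearly as low, and HS (17717, 17880 and 18456) lay between. All these libraries were below every Control library. The treatment without a call was PQ + HL + HS, at 31145, 30942 and 29208. Of its exon bases, 40.6% are also covered by AT3G27700, which had 1850 to 3186 normalised counts over the 48 libraries.

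LHCB2.1 (AT2G05100) had 43640, 45027 and 43471 normalised counts in PQ + HS and 78485, 80440 and 77538 in HS, against 56262, 56646 and 61888 in Control (log2 fold changes ± SE -0.40 ± 0.042 and 0.44 ± 0.042). LHCB2.2 showed the same split, with 33925, 30951 and 29979 in Salt and 76852, 78513 and 78526 in HS, against 48653, 48220 and 51394 in Control (log2 fold changes ± SE -0.65 ± 0.037 and 0.66 ± 0.037). LHCB3 (AT5G54270), which joins LHCB1 and LHCB2 in trimers, had 94028, 88561 and 85998 in Salt and 188419, 192490 and 194042 in HS, against 111906, 110650 and 118718 in Control (log2 fold changes ± SE -0.35 ± 0.032 and 0.75 ± 0.032). For these 3 genes the higher values in HS stood above every Control library, and they passed the test under all 3 scalings.

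The minor antenna proteins LHCB4, LHCB5 and LHCB6 link the trimers to the photosystem II core. LHCB4.2 (AT3G08940) had 62477, 58390 and 55724 normalised counts in Salt and 131407, 131482 and 135063 in HS, against 86391, 83572 and 91826 in Control (log2 fold changes ± SE -0.57 ± 0.038 and 0.61 ± 0.038). LHCB5 (AT4G10340) fell in 10 treatments and rose in 2, and its log2 fold changes ran from -0.63 in Salt to 0.47 in HL + HS. LHCB6 (AT1G15820) fell in 7 and rose in 4, from -0.61 in Salt to 0.31 in HL + HS. LHCB4.1 (AT5G01530) fell in 6 and rose in 3, from -0.31 in Salt to 0.39 in HL + HS. The HL + HS rises of LHCB5, LHCB6 and LHCB4.1 turned to falls under both other scalings.

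LHCB4.3 was chosen for description after its values were seen, because it was higher where most antenna genes were lower. It had 1572, 1582 and 1616 normalised counts in HL, 1261, 1363 and 1195 in Salt + PQ and 1211, 1218 and 1180 in Salt, against 609, 532 and 644 in Control. These 3 treatments lay above every Control library, with log2 fold changes of 1.42 (SE 0.088, adjusted p = 1.1e-18) in HL and 1.02 (SE 0.088, adjusted p = 5.2e-14) in Salt, and a value between these in Salt + PQ. In Salt + PQ + HS it had 398, 379 and 392, and its log2 fold change was -0.60 (SE 0.088, adjusted p = 4.3e-08). Across the 16 group means its median Pearson correlation with the other members was -0.53, the lowest of the 40, and that of PSAF was 0.81, the highest. Groups share the scaling factors, so this is a description. Its coding sequence is 70.6% identical to that of LHCB4.1. The 200 bases before each start are printed to set the 2 copies side by side, from chr5:208666-208865 and chr2:16745428-16745627 on the plus strand, with a G-box in capitals in LHCB4.1 and no match to the 4 motifs in LHCB4.3.
LHCB4.1: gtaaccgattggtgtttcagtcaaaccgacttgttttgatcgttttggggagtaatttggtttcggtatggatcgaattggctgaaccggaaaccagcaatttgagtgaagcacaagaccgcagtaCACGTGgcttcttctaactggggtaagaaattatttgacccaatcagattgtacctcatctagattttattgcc
LHCB4.3: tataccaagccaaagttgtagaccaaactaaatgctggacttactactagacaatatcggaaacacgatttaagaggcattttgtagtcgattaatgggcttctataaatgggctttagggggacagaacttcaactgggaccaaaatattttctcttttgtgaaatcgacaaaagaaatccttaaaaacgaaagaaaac

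Of the photosystem I antenna genes, LHCA1, LHCA3 and LHCA4 were called higher in 12 to 14 treatments. LHCA1 (AT3G54890) had 273417, 269954 and 267858 normalised counts in HS and 191618, 182616 and 174251 in Salt, against 108753, 109813 and 114464 in Control, with log2 fold changes of 1.28 (SE 0.038, adjusted p = 2.1e-30) and 0.72 (SE 0.038, adjusted p = 2.1e-21). It had 328862, 340093 and 343959 in HL + HS, a log2 fold change of 1.60 that was 0.74 with each library at the same total and 0.13 after quantile normalisation. LHCA1 was called higher in 14 treatments, 9 of them under all 3 scalings, and lower in none. LHCA3 (AT1G61520) had 246943, 244285 and 252416 in HS and 176274, 162716 and 177537 in PQ, against 141272, 141165 and 148567 in Control (log2 fold changes ± SE 0.79 ± 0.035 and 0.26 ± 0.035). It was called higher in 13 treatments, 8 under all 3 scalings, and its PQ value was -0.03 with each library at the same total and 0.04 after quantile normalisation.

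LHCA2 (AT3G61470) was lower in 5 treatments and higher in 6, at 163580, 156969 and 147351 normalised counts in Salt and 239788, 253133 and 255634 in Salt + HL + HS, against 172360, 167835 and 188741 in Control. The Salt and Control libraries did not overlap, and the log2 fold change was -0.18 (SE 0.05, adjusted p = 0.0015). In Salt + HL + HS it was 0.50 as deposited, and -0.33 with each library at the same total and -0.99 after quantile normalisation. LHCA4 (AT3G47470) was called higher in 12 treatments, 5 under all 3 scalings, with a log2 fold change of 0.76 in HS, and was called lower in Salt + PQ + HL (-0.09). LHCA5 (AT1G45474) and LHCA6 (AT1G19150), low-abundance members that in Arabidopsis help photosystem I associate with the NDH complex, fell in 11 and 10 treatments, all under the 3 scalings, with log2 fold changes down to -0.41 and -0.62 in Salt + HL. LHCA5 also rose in 3 treatments and LHCA6 in 1, under the 3 scalings too, by up to 0.11 and 0.13. LHCA1 and LHCB2.3 had the highest and lowest median log2 fold change over treatments among the antenna genes (0.64 and -1.39). A ratio of these 2 extremes was bound to differ from Control, so it is a description and no separate support. Within each library the ratio of LHCA1 to LHCB2.3 reads does not depend on scaling. It was 25.5 to 26.8 in PQ + HS and 19.7 to 20.5 in Salt, against 3.62 to 3.71 in Control, and lay above the Control range in 14 treatments and below it in PQ + HL + HS (3.43 to 3.56).

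**Figure D4:**
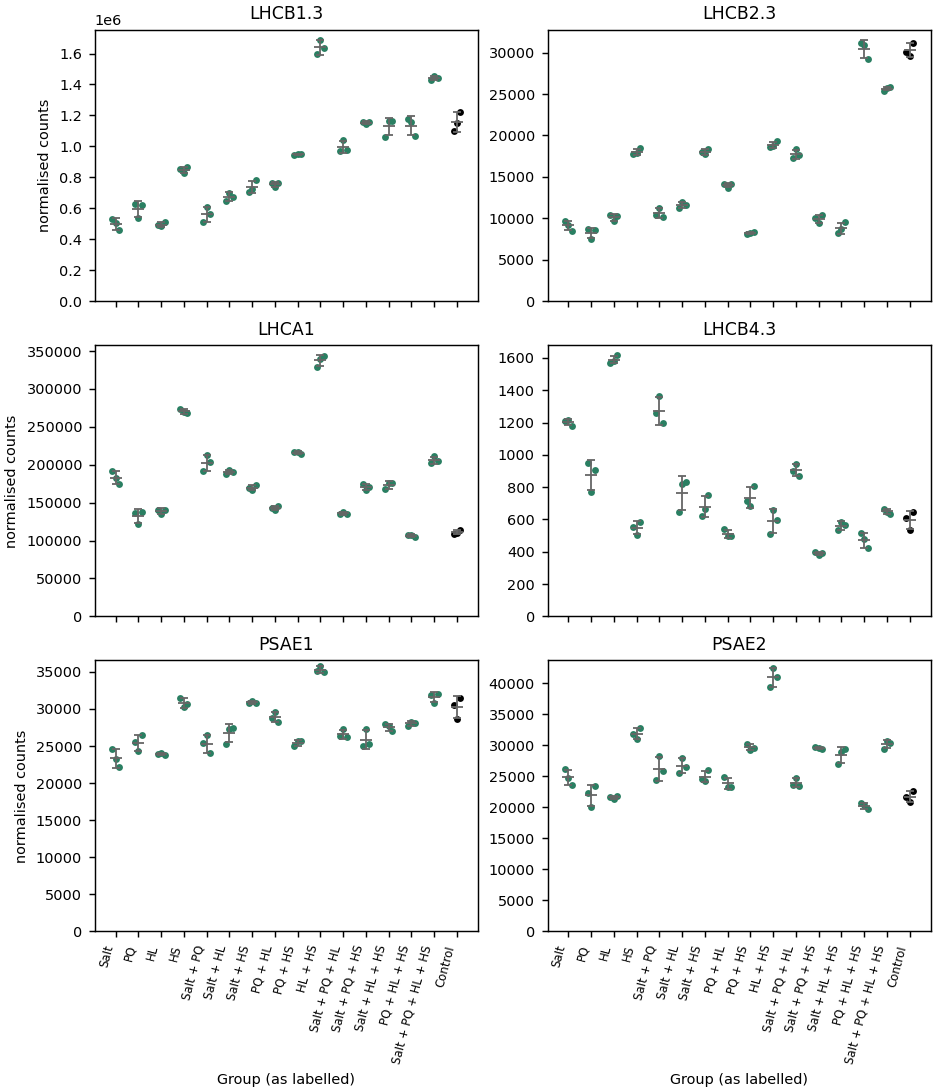
Normalised counts of 6 members in every library (points), with mean and SD of 3 (bars), by labelled group and with Control at the right. LHCB2.3 is below every Control library in all treatments but PQ + HL + HS, LHCA1 is above them in all but that one, and LHCB4.3 is at 1572, 1582 and 1616 in HL, against 609, 532 and 644 in Control.

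In Salt, photosystem II subunits had a median log2 fold change of -0.27, and the antenna genes -0.35. The extrinsic proteins PSBO, PSBP and PSBQ stabilise the manganese cluster that splits water. PSBQ2 (AT4G05180), one of 2 PSBQ copies, had 56737, 54397 and 52309 normalised counts in Salt and 54914, 52459 and 57383 in PQ, against 82286, 80030 and 84769 in Control (log2 fold changes ± SE -0.60 ± 0.034 and -0.59 ± 0.034), and PSBQ1 (AT4G21280) had log2 fold changes of -0.29 and -0.27. PSBQ2 fell in 10 treatments and rose in 3, and PSBQ1 fell in 5 and rose in 2. The ratio of PSBQ2 to PSBQ1 reads was 0.879 to 0.936 in HL, against 1.12 to 1.13 in Control. PSBO1 (AT5G66570) fell in 6 treatments and rose in 3, with a log2 fold change of -0.33 in Salt, where PSBO2 (AT3G50820) stood at 0.02, and the ratio of PSBO2 to PSBO1 was 0.424 to 0.430 in PQ, against 0.314 to 0.320 in Control. PSBP1 (AT1G06680) fell in 7 treatments and rose in 3, between -0.27 and 0.44.

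Of the small membrane subunits, PSBX (AT2G06520) had 67813, 63801 and 65270 normalised counts in Salt and 65206, 65615 and 66817 in PQ + HS, against 89339, 87734 and 92226 in Control. The groups did not overlap, and the log2 fold changes were -0.45 (SE 0.045, adjusted p = 4.1e-12) and -0.45 (SE 0.045, adjusted p = 4.6e-12). PSBX fell in 9 treatments, each under all 3 scalings, and rose in none. PSBR (AT1G79040), which helps the extrinsic proteins bind, had 343263, 361282 and 344810 in Salt + PQ + HS and 437177, 480079 and 439912 in HL + HS, against 222530, 209238 and 227425 in Control. PSBR was called higher in 13 treatments on the deposited scale, but in none of them under all 3 scalings, and its HL + HS value of 1.04 was 0.18 with each library at the same total and -1.21 after quantile normalisation. PSBW (AT2G30570), a subunit that stabilises photosystem II supercomplexes, had 110201, 109715 and 107070 in Salt + PQ + HL + HS and 75955, 76233 and 80822 in HL, against 90244, 84323 and 86591 in Control (log2 fold changes ± SE 0.32 ± 0.039 and -0.16 ± 0.039). PSBY (AT1G67740) was called in 2 treatments, lower in Salt (-0.13) and higher in HL + HS (0.36).

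Among photosystem I subunits, the duplicated genes parted. PSAD and PSAE form, with the chloroplast-encoded PSAC, the stromal side at which ferredoxin docks. PSAD2 (AT1G03130) had 20328, 19020 and 18311 normalised counts in Salt and 22683, 22969 and 24873 in HL, against 34949, 34116 and 36949 in Control, with log2 fold changes of -0.88 (SE 0.043, adjusted p = 2.4e-22) and -0.59 (SE 0.043, adjusted p = 3.1e-16). Its copy PSAD1 (AT4G02770) had log2 fold changes ± SE of -0.34 ± 0.047 and -0.23 ± 0.047. The ratio of PSAD2 to PSAD1 reads was 0.284 to 0.292 in Salt, against 0.411 to 0.422 in Control. It lay below the Control range in 12 treatments and above it in Salt + HS (0.480 to 0.497) and PQ + HL (0.460 to 0.468).

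PSAE2 and PSAE1 differed in direction. PSAE2 (AT2G20260) had 31812, 30952 and 32844 normalised counts in HS and 26096, 24771 and 23628 in Salt, against 21643, 20827 and 22612 in Control, with log2 fold changes of 0.56 (SE 0.045, adjusted p = 1.2e-14) and 0.19 (SE 0.045, adjusted p = 0.00016). The Salt value was -0.00 with each library at the same total and -0.15 after quantile normalisation. PSAE1 (AT4G28750) had 24631, 23213 and 22129 in Salt, against 30538, 28693 and 31515 in Control, a log2 fold change of -0.38 (SE 0.036, adjusted p = 1.5e-12). PSAE2 was called higher in 12 treatments (4 under all 3 scalings) and lower in none, and PSAE1 lower in 10 and higher in 1. Within libraries, the ratio of PSAE2 to PSAE1 was 1.14 to 1.21 in PQ + HS and 1.01 to 1.07 in HS, against 0.709 to 0.726 in Control, above the Control range in 14 treatments. PSAE1 shares 34.1% of its exon bases with neighbours and PSAE2 10.4%.

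PSAH docks mobile antenna trimers to photosystem I. PSAH2 (AT1G52230) had 22451, 20087 and 21086 normalised counts in Salt and 23111, 22461 and 21775 in Salt + PQ, against 40726, 37638 and 39096 in Control, with log2 fold changes of -0.89 (SE 0.043, adjusted p = 1.4e-22) and -0.80 (SE 0.043, adjusted p = 5.1e-21). It fell in 11 treatments, each under all 3 scalings, and rose in none. PSAH1 (AT3G16140) had 25841, 22435 and 23460 in Salt and 32026, 33996 and 31587 in Salt + PQ + HL + HS, against 27165, 23803 and 26524 in Control. Its Salt libraries overlapped Control, with a log2 fold change of -0.11 (SE 0.06, adjusted p = 0.084), and it was called higher in 4 treatments, 2 of them under all 3 scalings. The ratio of PSAH1 to PSAH2 was 1.11 to 1.15 in Salt, against 0.632 to 0.678 in Control. PSAG (AT1G55670), which helps stabilise the complex, had 10398, 10217 and 9359 in Salt and 16586, 16176 and 15931 in Salt + HL + HS, against 12671, 11761 and 12818 in Control (log2 fold changes ± SE -0.31 ± 0.044 and 0.39 ± 0.044), and the second of these was -0.44 with each library at the same total and -0.23 after quantile normalisation.

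The other photosystem I genes fell in the single stresses other than HS. PSAF (AT1G31330), which binds plastocyanin, had log2 fold changes of -0.37 in Salt, -0.40 in PQ and -0.42 in HL. PSAO (AT1G08380), which lies beside PSAH and PSAL (AT4G12800), had -0.45, -0.46 and -0.54 in these 3 treatments, and PSAK (AT1G30380), on the antenna side of the complex, -0.43, -0.34 and -0.39. PSAN (AT5G64040), on the lumenal side, had -0.31, -0.23 and -0.24, and PSAL, next to PSAH, -0.18, -0.14 and -0.14. All of these values passed the test. Over the 15 treatments PSAO was lower in 10 and higher in 3, PSAK and PSAN lower in 10 and higher in 2, PSAF lower in 7 and higher in 4, and PSAL lower in 4 and higher in 5. In HS, PSAF (0.26), PSAL (0.20) and PSAO (0.12) were called higher (PSAO on the deposited scale only), and PSAK (0.03) and PSAN (0.05) were not called.

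By class, the median log2 fold change was -0.27 for antenna, -0.20 for photosystem II and -0.32 for photosystem I genes in HL, where all tested genes had 0.00. In HS the 3 medians were 0.27, 0.02 and 0.16, with 11 of 19 antenna, 3 of 9 photosystem II and 7 of 12 photosystem I genes called higher, against 37.2% of all genes. In Salt + PQ + HL + HS they were 0.24, 0.09 and 0.20, with 14, 5 and 9 called higher, against 23.3% of all genes. Differences between classes were not tested.

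A pair of stresses can be asked whether together they gave the sum of their single effects, since every single stress and pair was labelled. The interaction is the log2 fold change of the pair minus those of its 2 parts, so a positive value means a higher level than the sum. For Salt and HL, 32 of the 40 genes had a positive and 6 a negative interaction, with a median of 0.46. Of all tested genes, 78.6% were called in either direction (8408 positive and 8513 negative). Salt and PQ gave 30 positive and 3 negative, against 72.9% of all genes (7658 positive and 8037 negative). PQ and HL gave 31 and 6, against 77.1% (8225 positive and 8376 negative). For Salt and HS the counts were 27 and 8, against 73.5% (7594 positive and 8244 negative). All positive calls of these 4 pairs were made under all 3 scalings. At the same total the median interaction of all genes moved up too. It was 0.28 for Salt and PQ, 0.38 for Salt and HL, 0.16 for Salt and HS and 0.38 for PQ and HL. Positive calls could hardly be lost that way, so keeping them is no separate support.

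LHCB1.3 shows the pattern: its log2 fold change was -1.22 in Salt, -1.23 in HL and -0.78 in Salt + HL, an interaction ± SE of 1.67 ± 0.084. LHCB2.3, at -1.73, -1.58 and -1.39 in the same groups, had 1.93 ± 0.065. The 6 interactions share the Control and single-stress libraries, and through these the marker values given above. PQ and HS gave 16 positive and 12 negative interactions, against 68.2% of all genes (7201 positive and 7481 negative), which is close to the members' own share. Of these, 4 of the positive and all 12 negative calls were made under all 3 scalings. With each library at the same total, 26 were negative and 6 positive, against 52.3% and 19.2% of all genes. The median of all genes was then -0.28, so keeping the negative calls is no separate support. HL and HS gave 37 positive and 1 negative, against 74.6% of all genes (7643 positive and 8424 negative). With each library at the same total, however, 17 were negative and 14 positive, against 69.7% and 12.7% of all genes. After quantile normalisation 25 were negative and 12 positive, against 35.7% and 36.6%.

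Adding 1 more stress to a combination was compared directly. PQ + HL + HS against HL + HS had 36 members lower and 3 higher, against 43.3% and 42.8% of all tested genes, and this direction turned with the scaling: 9 were lower and 31 higher with each library at the same total, against 14.5% and 78.6% of all genes, so that the members' higher calls were then close to the share of the whole table. Without replicate 1 of every treatment, 1 gene was higher. Salt + PQ + HL against Salt + PQ had 8 lower and 22 higher, against 39.6% and 38.3% of all genes, and Salt + PQ + HL + HS against Salt + HL + HS had 7 lower and 28 higher, against 42.9% and 43.5%. With each library at the same total the first of these had 5 lower and 33 higher, against 27.4% and 53.3% of all genes, and the second 0 lower and 40 higher, against 16.3% and 76.1%. All 22 and 27 of the 28 higher calls were made under all 3 scalings. The median of all genes moved up at the same total, to 0.22 in the first and 0.82 in the second. Higher calls could hardly be lost that way, so keeping them is no separate support. LHCB2.3 had 25398, 25776 and 25813 normalised counts in Salt + PQ + HL + HS, against 8210, 8657 and 9534 in Salt + HL + HS, a log2 fold change ± SE of 1.55 ± 0.046. The heat markers named above had median log2 fold changes of -0.40 to 0.09 against Control in the 3 larger combinations compared here, and their part in these differences was not tested.

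Between the single stresses HL and HS, 34 of 40 members were lower in HL and 4 higher, against 33.9% and 34.8% of all tested genes, and all 34 lower calls were made under all 3 scalings. The median of all genes was -0.11 at the same total, the same direction, so keeping these calls there is no separate support. LHCB1.4 (AT2G34430) had 79068, 72735 and 77018 normalised counts in HL, against 322924, 318235 and 333630 in HS, a log2 fold change ± SE of -2.09 ± 0.068. LHCA1 had 140924, 134964 and 140935 in HL, against 273417, 269954 and 267858 in HS, a log2 fold change ± SE of -0.96 ± 0.038. No HL library of either gene reached the lowest HS library.

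The genes that carry electrons onward from the photosystems did not move as a block. Of 10 nuclear genes for plastocyanin, the Rieske protein, ferredoxins, ferredoxin-NADP reductases and ATP synthase, 5 were lower and 3 higher in HL, against 37.5% and 38.5% of all genes. PETE1, a plastocyanin gene, fell by 1.17 on the log2 scale in Salt, while PETE2, its copy, stood at -0.07. FD1, a minor leaf ferredoxin, rose by 2.26 in HL, and FD2, the major one, fell by 0.26. Of 8 genes for antenna insertion, state transitions and energy dissipation, 3 were lower and 4 higher in HL and also in Salt, where the shares of all genes were 39.1% and 40.5%, close to the list's own. CAO/CPSRP43, which carries antenna proteins to the thylakoid membrane, fell by 1.05 in HL and 1.14 in Salt, and PSBS, needed for the fast dissipation of excess light energy, rose by 0.86 in HL.

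Of 8 regulators, 4 were lower and 4 higher in HL, against 37.5% and 38.5% of all genes. GLK1, a transcription factor that activates LHCB genes, had 6480, 6366 and 6844 normalised counts in PQ and 7055, 7091 and 7153 in HL, against 13670, 13507 and 14377 in Control (log2 fold changes ± SE -1.08 ± 0.036 and -0.96 ± 0.036), and GLK2 stood at -0.06 and -0.31. HY5, a factor of light signalling, rose by 2.21 in HL and 2.15 in Salt. CCA1, a clock component that binds LHCB promoters, rose by 2.26 in HL and 2.01 in Salt, and LHY, its partner, fell by 0.42 and 1.22. In Salt + PQ + HL + HS, 7 of the 8 regulators were lower and none higher, against 23.6% and 23.3% of all genes. Whether any of these genes bears on the antenna genes was not tested.

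How libraries were scaled decided the direction for part of the treatments. With each library at the same total, the median of all tested genes moved by -0.19 in Salt, -0.29 in PQ, -0.21 in HL, -0.80 in Salt + PQ + HS and -0.66 in PQ + HS. The shift was -0.84 for Salt + HL + HS and -0.88 for HL + HS. Where all genes moved down, a lower call could hardly be lost at the same total, so keeping it there is no separate support. The median of the 40 genes minus that of all tested genes is nearly the same by construction at the deposited scale and at the same total. It was 0.49 in HL + HS and -0.34 in Salt, and after quantile normalisation -0.66 in HL + HS and -0.55 in Salt. The sign was thus the same in Salt and turned in HL + HS.

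**Figure D5:**
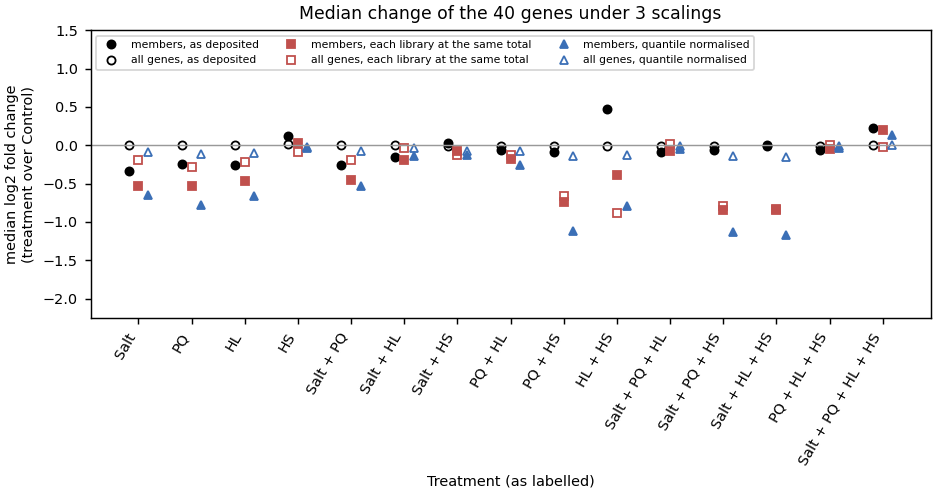
Median log2 fold change of the 40 members (filled) and of all tested genes (open) over Control in each labelled treatment, under the deposited scaling (circles), with each library at the same total (squares) and after quantile normalisation (triangles). Members are below 0 under each scaling in every treatment but HS, Salt + HS, HL + HS and Salt + PQ + HL + HS. In HL + HS the median was 0.48 as deposited and -0.39 at the same total.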

How the data were processed

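RNA-seq of Arabidopsis seedlings was analysed from the deposited table of 48 libraries. The authors checked reads with FastQC 0.11.7, aligned single-end reads with STAR 2.4.0.1 to TAIR build 10 (up to 10 mismatches and 9 locations a read), counted them on Araport11 genes and normalised the counts with DESeq2 1.20.0. Reads placed at several locations can be shared among close copies. The deposited values are thus a signal: counts divided by size factors. Dividing by the step size gave whole reads (within 0.1) for 100% of values, 67888254 to 87569857 a library.

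The values are not counts, so limma 3.58.1 (trend) in R 4.3.3 was fitted to log2(value + 1) of 21536 genes (mean value 10 or more) with 16 group means, and p-values were adjusted by Benjamini-Hochberg over all of them (called below 0.05). The alternatives were edgeR 4.0.16 and DESeq2 1.42.0 on recovered reads, pseudocounts of 0.1 and 10, no filter, a fold change of at least 2, other scalings, single libraries left out, only the groups compared, summed copies and a replicate block. Values in every library are given for, in each class, the members with the 2 lowest and 2 highest median changes and those called in both directions in at least 5 treatments each. The other members are given by counts and ranges, or beside a close copy, and LHCB4.3 was added after its values were seen. The members and lists were chosen with earlier results of these data known. Promoters and coding sequences came from RefSeq TAIR10.1, matched by locus ID, with Python 3.11.15, numpy 2.4.6 and pandas 2.3.3. Replicates are separate seedling pools, and replicate pairs differed by 1.86 to 16.5 times sampling noise (chi-square per degree of freedom). The highest values, 16.5 and 12.4, both involved PQ replicate 1, and the next highest was 7.08, in Salt + HL + HS. The fit shares 1 estimate of the spread over all groups, so the standard errors in PQ do not show this.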

Additional observations from a re-analysis of the deposited data

Results flagged for a closer look

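The 6 pairs of stresses were flagged because, in a test of the interaction itself, many of the 40 genes differed from the sum of the 2 single effects. The counts in either direction are given with the share of all tested genes in brackets. They were 33 for Salt and PQ (72.9%), 38 for Salt and HL (78.6%) and 35 for Salt and HS (73.5%). They were 37 for PQ and HL (77.1%), 28 for PQ and HS (68.2%) and 38 for HL and HS (74.6%). The count for PQ and HS was close to the share of all genes. Of all tested genes, 68.2% to 78.6% were called in the same tests, and the libraries labelled Salt, PQ and HL carried heat-marker levels that their labels do not give, so what these interactions measure cannot be told apart from an exchange of labels.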

How the results depend on the processing

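The counts of members called kept within 1.5 times of their values in all 25 comparisons with edgeR, with DESeq2, with pseudocounts of 0.1 and 10, without the filter and with the fit restricted to the groups compared, and in the 19 comparisons that do not use them when the libraries of 3 combinations were left out, a choice made after seeing the data. These counts are the lower calls in treatments, the interactions in either direction and the higher calls in direct comparisons. The other counts, class medians and named-gene values were checked apart. Of these, 6 moved with edgeR, 0 with DESeq2, and 5, 22 and 17 without Control replicate 1, 2 and 3. A count moved if it changed by more than 1.5 times, and a class median if it shifted by at least its SD over 3 libraries. Replicate numbers did not pair the samples (mean correlation of residuals -0.00029, lowest -0.258 among same-numbered libraries), and a fit with the replicate block left all 25 counts within 1.5 times, 31 lower in Salt among them. Scaling each library to the same total gave 13 lower calls in HS, 31 in HL + HS, 19 in Salt + HS, 40 in Salt + HL + HS, 27 in PQ + HL, 39 in Salt + PQ + HS and 38 in PQ + HS, with 31 higher in PQ + HL + HS than in HL + HS. Quantile normalisation gave 13 lower calls in HS, 35 in HL + HS, 22 in Salt + HS, 39 in Salt + HL + HS, 29 in PQ + HL, 40 in Salt + PQ + HS, 39 in PQ + HS and 4 in Salt + PQ + HL + HS, with 35 higher in PQ + HL + HS than in HL + HS, 35 in Salt + PQ + HL than in Salt + PQ and 2 in HL than in HS. Both scalings remove the difference in library totals left by the deposited size factors, and which scale holds the true levels was not tested.

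With a fold change of at least 2 as a further condition, 2 members were lower in Salt, 2 in PQ, 3 in HL, 2 in Salt + PQ, 1 each in Salt + HL, Salt + HL + HS, PQ + HL, Salt + PQ + HS and PQ + HS, and 0 in HS, Salt + HS, HL + HS, Salt + PQ + HL, PQ + HL + HS and Salt + PQ + HL + HS. Interactions then numbered 3 for Salt and PQ, 9 for Salt and HL, 4 for Salt and HS, 9 for PQ and HL, 2 for PQ and HS and 7 for HL and HS. Higher calls in the direct comparisons were 0 for PQ + HL + HS over HL + HS, 0 for Salt + PQ + HL over Salt + PQ, 1 for Salt + PQ + HL + HS over Salt + HL + HS and 1 for HL over HS. Leaving out replicates gave 3 to 8 lower calls in PQ + HL + HS, 1 to 2 in Salt + PQ + HL + HS and 1 to 3 higher calls in PQ + HL + HS over HL + HS. In HL + HS the log2 fold change turned negative at the same total for LHCB1.3 (-0.36), PSBQ2 (-0.38), PSBW (-0.24), PSAH1 (-0.35) and LHCB2.1 (-0.31), and after quantile normalisation for LHCB1.3 (-0.94), LHCA3 (-0.013), PSBQ2 (-0.67), PSBW (-0.57), PSBR (-1.21), PSAH1 (-0.38), LHCB1.4 (-0.92), LHCB2.1 (-0.60) and LHCA2 (-0.66). The lowest value of a tested member was 379 normalised counts, of LHCB4.3 in 1 library of Salt + PQ + HS.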
